A study of Drosophila melanogaster with 14 samples.

Results

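Of 16727 genes counted in RNA from cultured Drosophila melanogaster ovarian somatic cells, 6 were taken for standing well below the control in every library made after knockdown of L(3)mbt or of Lint-1. They are Argk, Cyp6d5, CG10365, Idgf1, CG8213 and CG14608. A gene was taken when its mean in the control was at least 5 counts per 1000000 gene-assigned reads (CPM) and all 4 libraries of the L(3)mbt and Lint-1 knockdowns stood at or below 0.7 of the lower control library. Of the 6443 genes with that control level 10 did so, a share of 0.155%. Of these, mthl9, mthl10, CG9521 and Act57B were left out by name, as were mth, okr, Lint-1 and l(3)mbt, which did not meet the rule. The genes were thus chosen by their CPM in the control, L(3)mbt and Lint-1 knockdowns, so L(3)mbt KD and Lint-1 KD are set beside the control below as a description with no test. Comparisons that reuse some of these libraries are named as such where they are given.

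The cells, a line of ovarian follicle origin, were kept in medium with serum, insulin, fly extract and added glutathione, and were taken 48 hours after RNAi. The control was RNAi against EGFP, a sequence that fly cells lack (EGFP KD), and the other groups received RNAi against l(3)mbt (L(3)mbt KD), Lint-1 (Lint-1 KD) or Lint-O, which the table lists as CG2662 (Lint-O KD). Each of the 4 groups had 2 libraries of polyadenylated RNA, numbered 1 and 2. Whether the libraries of a group stem from different cultures is not stated in the labels. The p-values below thus refer to the spread between these libraries, part or all of which may be technical.

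L(3)mbt binds chromatin through malignant brain tumour repeats and keeps genes silent, and flies that lack it form brain tumours in which germline genes are active. Lint-1 is its partner in the LINT repressor complex, and Lint-O is an L(3)mbt interactor in these cells.  The 6 genes belong to no single pathway. Argk, Cyp6d5 and CG10365 encode enzymes of energy, xenobiotic and glutathione metabolism, whereas Idgf1, CG8213 and CG14608 encode proteins that are secreted or act in the matrix outside the cell.

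Reads assigned to genes ranged from 18293791 to 20978039 per library. Each RNAi target was lower in the libraries that carry its label, with l(3)mbt at 55.8% of its EGFP KD mean, Lint-1 at 21.2% and CG2662 at 8.44%. All 15 markers of follicle and ovarian somatic cells had counts in every library, with sums of 1507 to 2203 CPM. The summed level of 11 germline markers was 18.1 to 24.5 CPM in EGFP KD, 232.9 to 242.7 in L(3)mbt KD, 109.1 to 115.0 in Lint-1 KD and 124.5 to 162.6 in Lint-O KD. Of the germline markers, osk stood at or below 0.107 CPM in all libraries. The 10 hemocyte markers summed to 226.9 to 248.4 CPM in EGFP KD and to 274.6 to 403.2 in the knockdowns, most of it from the collagen gene Cg25C, with He at 0 throughout. The 8 fat body markers summed to 1.44 to 2.51 CPM in EGFP KD and to 4.12 to 11.5 in the knockdowns. Most of this came from Yp3 and Rfabg, with Fbp1, Fbp2 and Lsp1alpha at 0 throughout. Muscle markers overlapped between EGFP KD (53.95 to 86.7 CPM) and the knockdowns (55.3 to 83.9), with TpnC73F at 0. Neuron markers did so too (30.2 to 52.4 and 43.2 to 83.3 CPM), with Rdl and fne at 0. The hemocyte and fat body sums thus rest on few markers, and the presence of such cells is not read from them. Whether the changes in germline, hemocyte and fat body markers bear on the results was not tested.

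Among the enzymes, Argk (current symbol Argk1; dm6, 3L, 9048781 to 9066027) encodes arginine kinase, which buffers ATP in arthropod cells by storing phosphate on arginine. The EGFP KD libraries gave 2097 and 1921 CPM, those of L(3)mbt KD 1094 and 1341 CPM, those of Lint-1 KD 1038 and 984.1 CPM and those of Lint-O KD 1624 and 1579 CPM, in the order of their numbers here and below. The groups did not overlap, and Lint-O KD lay between the control and the other knockdowns. The mean was 2009 ± 124 CPM for EGFP KD (SD, n = 2, as for all means here), 1218 ± 175 CPM for L(3)mbt KD, 1011 ± 38.3 CPM for Lint-1 KD and 1602 ± 32.0 CPM for Lint-O KD. These knockdown means were 60.6%, 50.3% and 79.7% of the control mean. In bulk RNA, less RNA per cell and fewer cells that express a gene cannot be told apart.

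Cyp6d5 (3R, 14029228 to 14031483) encodes a cytochrome P450 of the Cyp6 family, members of which oxidise foreign compounds in insects. EGFP KD gave 156.3 and 155.5 CPM, L(3)mbt KD 108.1 and 95.2 CPM, Lint-1 KD 64.4 and 41.3 CPM, and Lint-O KD 104.1 and 103.7 CPM. Lint-O KD lay within the range of L(3)mbt KD, and Lint-1 KD lay below both. The means were 155.9 ± 0.572 CPM for EGFP KD, 101.7 ± 9.07 CPM in L(3)mbt KD, 52.9 ± 16.4 CPM in Lint-1 KD and 103.9 ± 0.302 CPM in Lint-O KD. Relative to the control mean these were 65.2%, 33.9% and 66.6%.

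CG10365 (3R, 23723331 to 23731499) carries the RefSeq synonym Chac1. Enzymes of the ChaC type, described in mammals and yeast, cleave glutathione, the main small thiol of the cell and here also an addition to the medium of every group. Its levels were 21.6 and 18.3 CPM in EGFP KD, 11.5 and 12.3 in L(3)mbt KD, 8.68 and 10.3 in Lint-1 KD, and 14.3 and 16.0 in Lint-O KD. No groups overlapped. Group means of 19.9 ± 2.32, 11.9 ± 0.514, 9.51 ± 1.18 and 15.1 ± 1.22 CPM in the same order put the knockdowns at 59.7%, 47.7% and 75.8% of the control.

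Among the genes of secreted and matrix proteins, Idgf1 (2L, 16445278 to 16446793) encodes an imaginal disc growth factor, a secreted chitinase-like protein without known chitinase activity. Its counts were low. Levels of 7.96 and 9.28 CPM in EGFP KD compare with 5.41 and 4.51 in L(3)mbt KD, 3.53 and 3.21 CPM in Lint-1 KD, and 5.07 and 7.83 CPM in Lint-O KD. The Lint-O KD libraries differed from each other more than those of any other group, and 1 of them lay within the L(3)mbt KD range. The means were 8.62 ± 0.931 CPM in EGFP KD, 4.96 ± 0.638 in L(3)mbt KD, 3.37 ± 0.222 in Lint-1 KD and 6.45 ± 1.96 in Lint-O KD, the knockdowns being 57.6%, 39.1% and 74.8% of the control.

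CG8213 (current symbol flz, chromosome arm 2R) encodes Filzig, a membrane-anchored serine protease that acts on the apical extracellular matrix of the tracheal tubes in the fly embryo. It was read at 6.36 and 8.56 CPM in EGFP KD, 3.66 and 1.72 in L(3)mbt KD, 1.53 and 1.07 in Lint-1 KD, and 3.38 and 5.81 in Lint-O KD. The lowest of these, in Lint-1 KD 2, rested on 20 counts, with an exact 95% Poisson interval of 0.654 to 1.65 CPM that covers counting error only. L(3)mbt KD and Lint-O KD overlapped, and both Lint-1 KD libraries lay below all others. The means of 7.46 ± 1.56 CPM in EGFP KD, 2.69 ± 1.37 in L(3)mbt KD, 1.30 ± 0.321 in Lint-1 KD and 4.59 ± 1.72 in Lint-O KD set the knockdowns at 36.1%, 17.4% and 61.6% of the control.

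CG14608 (current symbol thw; 3R, 7224414 to 7241138) encodes a protein with a chitin-binding domain. It gave 25.7 and 38.7 CPM in EGFP KD, 6.23 and 4.56 in L(3)mbt KD, 13.3 and 4.66 in Lint-1 KD, and 12.9 and 11.9 in Lint-O KD. As a ratio, this gene had the widest spread between the libraries of a group, with 280 counts in Lint-1 KD 1 and 87 in Lint-1 KD 2, and all Lint-O KD values lay inside the Lint-1 KD range. Means were 32.2 ± 9.15 CPM in EGFP KD, 5.40 ± 1.18 in L(3)mbt KD, 9.0 ± 6.14 in Lint-1 KD and 12.4 ± 0.695 in Lint-O KD, or 16.7%, 27.9% and 38.4% of the control for the knockdowns.

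**Figure D1:**
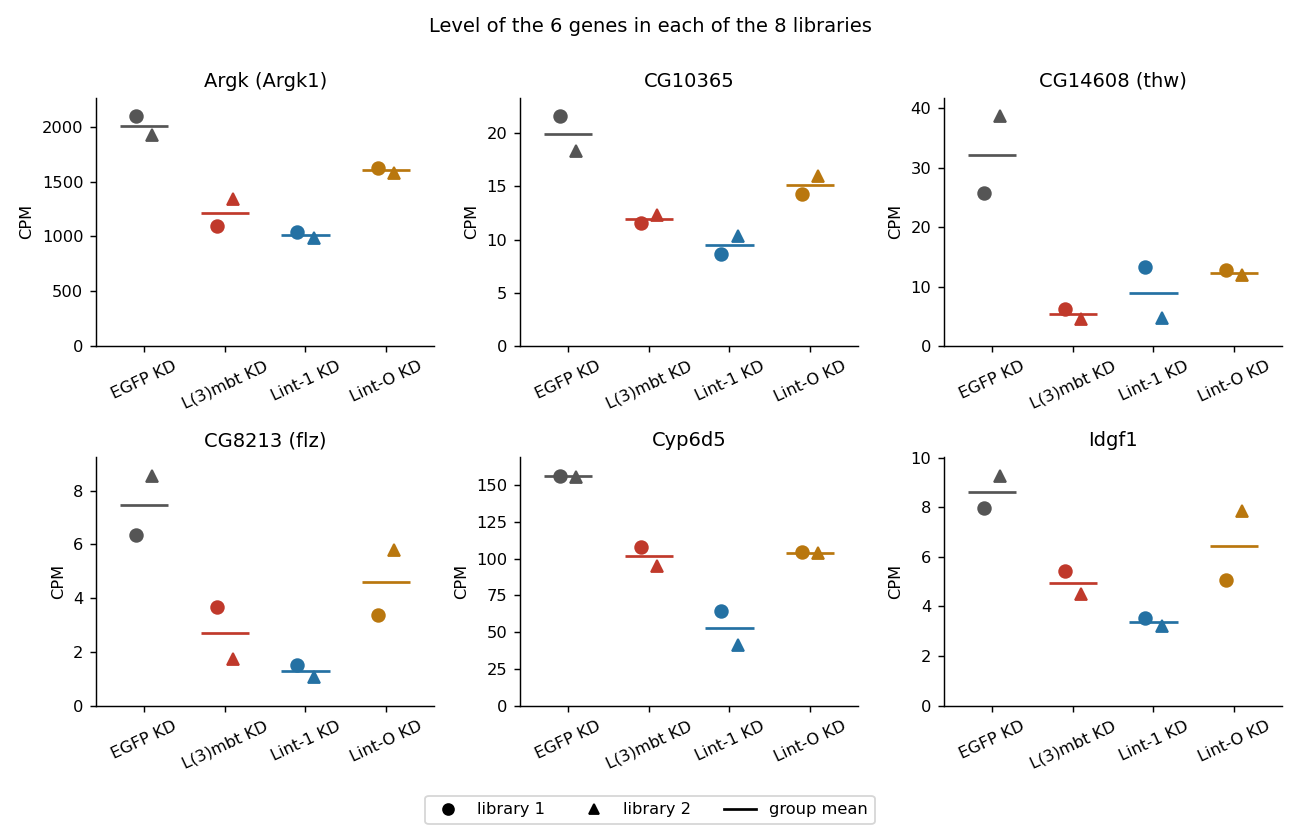
CPM of the 6 genes (1 panel each, linear axis from 0) in the 8 libraries, with points for libraries and horizontal lines for group means. In every panel both EGFP KD points lie above all other points, and the Lint-O KD points lie between EGFP KD and the lower knockdown groups or within them.

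CPM is not corrected for gene length, so levels are not compared between genes here. The members nearest the limit of 0.7 were Argk, whose highest knockdown library stood at 0.698 of the lower control library, Cyp6d5 at 0.695 and Idgf1 at 0.680. Just outside were CG7694 at 0.710, Smu1 at 0.726 and Traf6 at 0.733. On the control level, the members nearest to the limit of 5 CPM were CG8213 at 7.46, Idgf1 at 8.62 and CG10365 at 19.9 CPM. Of the genes that missed only this limit, the nearest to it were dpp at 2.33, Cyp4g15 at 1.10 and CG34220 at 0.993 CPM. With a ratio of 0.6 only CG14608 and CG8213 were left, and with 0.8 there were 37 genes.

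The ranking of the group means was the same for 5 of the 6 genes, with EGFP KD highest, then Lint-O KD, L(3)mbt KD and Lint-1 KD. CG14608 had L(3)mbt KD lowest in place of Lint-1 KD. The rule fixes the place of the control above L(3)mbt KD and Lint-1 KD but neither the order of these knockdowns nor the place of Lint-O KD. A choice by high control values and low L(3)mbt KD and Lint-1 KD values does favour a place of Lint-O KD between them. Nothing is therefore read from that place. Neighbours in the ranking did not all differ beyond their spread. Lint-O KD and L(3)mbt KD overlapped for Cyp6d5, Idgf1 and CG8213 and were apart for Argk and CG10365. For CG14608, Lint-1 KD overlapped with both Lint-O KD and L(3)mbt KD. The share of all tested genes with this ranking or these overlaps was not computed, so neither is read as a trait of the 6.

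**Figure D2:**
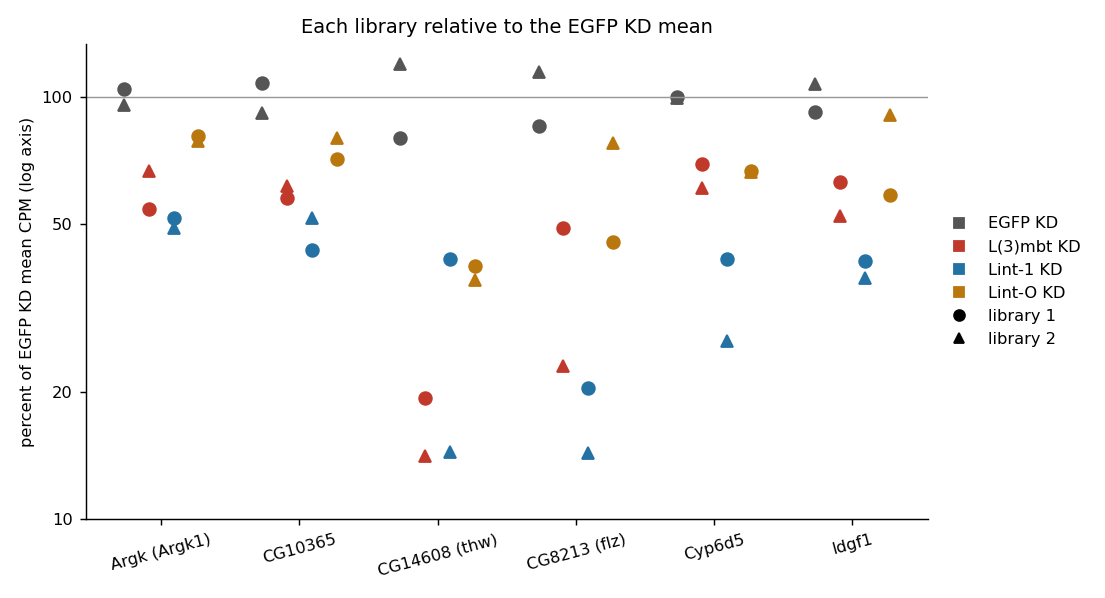
Level of each of the 6 genes in each library as a share of its EGFP KD mean, in percent on a log axis, with points for libraries and the line at 100 for the control mean. Lint-1 KD is lowest for every gene but CG14608, where 1 Lint-1 KD library lies slightly above those of Lint-O KD.

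Lint-1 KD was also compared with L(3)mbt KD. The rule treats these knockdowns alike and does not fix which is lower, but the same 4 libraries chose the genes, so the p-values and intervals of this comparison are not independent of the choice and are given as a description. Both Lint-1 KD libraries were below both L(3)mbt KD libraries for 5 of the 6 genes, against 15.3% of the 8244 genes tested. Since these libraries chose the genes, nothing is read from this count. None of the 6 passed edgeR's quasi-likelihood test at an adjusted p under 0.05, where 6 of all tested genes did (0.0728%). At an unadjusted p under 0.05 there were 2, and DESeq2 called 1. No alternative setting called more than 1.

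The smallest adjusted p among them was that of Cyp6d5, which stood at a log2 fold change of -0.95 in Lint-1 KD relative to L(3)mbt KD (SE 0.186, 95% interval -1.37 to -0.53, edgeR adjusted p = 0.185). Cyp6d5 passed in 3 of the 17 alternative settings, namely DESeq2 (adjusted p = 0.00177), edgeR without the low-count filter (adjusted p = 0.00296) and a crossed replicate block. That block swaps the replicate numbers of L(3)mbt KD and Lint-1 KD and was chosen after seeing the data. For CG8213 the log2 difference was -1.03 (SE 0.432, interval -2.01 to -0.05, edgeR adjusted p = 0.750), the other of the 2 genes with an unadjusted p under 0.05. These intervals are for a single gene and are not adjusted for the number of genes tested.

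The remaining differences were smaller than their intervals. They were -0.56 for Idgf1 (interval -1.14 to 0.03), -0.33 for CG10365 (-0.77 to 0.11) and -0.28 for Argk (-0.61 to 0.05) on the log2 scale. CG14608 went the other way, at 0.74 (interval -0.23 to 1.71), and this rested on Lint-1 KD 1, since without that library it was -0.23 with an edgeR adjusted p of 0.901. A difference that misses the test does not show that the knockdowns act alike on these genes. The RNAi targets were also lowered unequally, l(3)mbt to 55.8% of its EGFP KD mean in L(3)mbt KD and Lint-1 to 21.2% in Lint-1 KD. Whether this bears on the differences was not tested.

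Lint-O KD was not used to choose the genes, although the EGFP KD libraries it is compared with were, and genes taken for high control values are drawn towards lower ratios. The estimates, intervals and p-values of this comparison are therefore not independent of the choice. Both Lint-O KD libraries lay below both EGFP KD libraries for 6 of the 6 genes, where 15.6% of tested genes did so. By the limit of the rule itself, both Lint-O KD libraries of CG14608 and Cyp6d5 stood at or below 0.7 of the lower EGFP KD library, as did 0.357% of the genes with the required control level. Because high control values helped to choose the genes, nothing is read from these counts. None of the 6 was called lower by edgeR at an adjusted p under 0.05, against 21 of the 8244 tested genes (0.255%). At an unadjusted p under 0.05 there were 3, namely CG14608, Cyp6d5 and Argk, and DESeq2 called CG14608 alone. Over the 17 alternative settings CG14608 passed in 6, Cyp6d5 in 5, Argk in 1 and the others in 0, with at most 3 of the 6 called in any of them. These counts include the crossed replicate block, chosen after seeing the data. The pass of Argk and the count of 3 come from that block alone, and no planned setting called more than 2.

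CG14608 had the lowest estimate of the 6, -1.38 on the log2 scale (SE 0.408, 95% interval -2.31 to -0.46, edgeR adjusted p = 0.114). Cyp6d5 stood at -0.60 (SE 0.184, interval -1.01 to -0.18, edgeR adjusted p = 0.136). Both passed in a fit of only the 4 libraries compared, with edgeR adjusted p-values of 0.00335 and 0.0176, and without the low-count filter at 0.0019 and 0.0326. They also passed when 1 Lint-1 KD library was left out, at 0.0156 and 0.0355 without Lint-1 KD 1 and at 0.0149 and 0.0360 without Lint-1 KD 2. DESeq2 gave CG14608 an adjusted p of 0.00561.

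For the other 4 genes the log2 fold changes in Lint-O KD were -0.72 for CG8213 (interval -1.56 to 0.12), -0.44 for Idgf1 (-0.99 to 0.12), -0.41 for CG10365 (-0.84 to 0.02) and -0.34 for Argk (-0.66 to -0.01), with edgeR adjusted p-values from 0.355 to 0.565. The median log2 ratio of Lint-O KD to EGFP KD, on log2(CPM + 0.5), was -0.50 over the 6 genes and 0.00 over all tested genes. The high control level that the rule asked for is the denominator of this ratio, so part of the gap is built in. For the 56 genes chosen with EGFP KD 2 alone and read against EGFP KD 1, a wider set that holds the 6, the median was -0.0026. For the 10 genes chosen with EGFP KD 1 alone and read against EGFP KD 2, again with the 6, it was -0.40.

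For these readings the rule was applied with 1 control library and Lint-O KD was read against the other. With EGFP KD 1 alone the rule gave 10 genes, the 6 among them, and against EGFP KD 2 their median ratio in Lint-O KD was 0.761, with 9 below 1, where all tested genes had a median of 0.982. The 6 genes themselves stood at 0.320 for CG14608 to 0.834 for Argk. With EGFP KD 2 alone the rule gave 56 genes, again with the 6, and against EGFP KD 1 the median ratio was 1.02, with 28 below 1, beside 1.03 for all tested genes. In that direction the 6 ranged from 0.481 for CG14608 to 0.810 for Idgf1, all lower than in the control library set beside them. The wider set taken with EGFP KD 2 alone thus had a median close to that of all tested genes. The set of 10 taken with EGFP KD 1 alone, most of which are the 6, had a lower one. The 6 were chosen with both control libraries, so nothing is read from their own ratios.

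**Figure D3:**
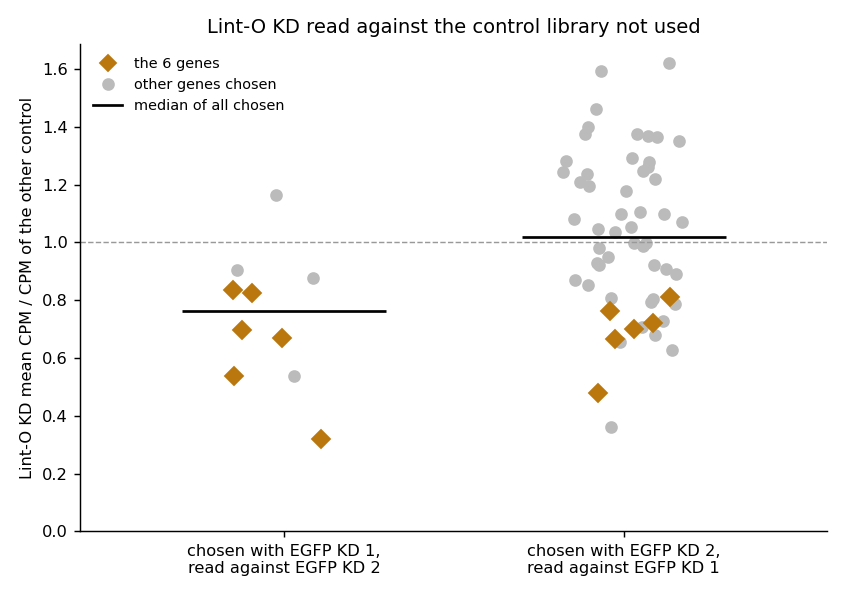
Ratio of the Lint-O KD mean to the EGFP KD library that was not used in the choice, for the 10 genes chosen with EGFP KD 1 alone and the 56 chosen with EGFP KD 2 alone, on a linear axis from 0. The medians of all chosen genes are 0.761 and 1.02. The 6 genes lie below 1 in both sets, but they were chosen with both control libraries, so nothing is read from their ratios.

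Relatives and neighbours of the 6 genes, which were chosen after the 6 were known, did not all follow them. Some relatives of Idgf1 were called lower in Lint-1 KD, as given below. The other arginine kinase gene measured, Argk2 (listed as CG5144; 3L, 9047439 to 9048724), ends 57 bp from Argk and moved the opposite way. Its levels were 0.534 and 0.410 CPM in EGFP KD, 2.30 and 2.84 in L(3)mbt KD, 3.43 and 2.73 in Lint-1 KD, and 3.08 and 3.41 in Lint-O KD. All 6 knockdown libraries were above both control libraries. The control levels rest on few reads, so the rise of Argk2 is imprecise in size. On the log2 scale it rose by 2.37 ± 0.392 (SE) in L(3)mbt KD, 2.62 ± 0.388 in Lint-1 KD and 2.76 ± 0.387 in Lint-O KD, with edgeR adjusted p-values of 0.00436, 0.00257 and 0.00254. These calls held in each of the 17 alternative settings, with adjusted p-values of at most 0.0367. The 3 comparisons share their control libraries.

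Of the other 4 imaginal disc growth factor genes tested, relatives of Idgf1, edgeR called 3 lower in Lint-1 KD, where 1.25% of all tested genes were. Each of these 3 calls was lost when certain single libraries were left out. Such a fit leaves 1 library in a group, so a lost call is not read as a smaller change, here and below. Idgf2, which lies 537 bp from Idgf1, had 30.6 and 32.3 CPM in EGFP KD, 29.5 and 25.1 in L(3)mbt KD, 19.9 and 16.8 in Lint-1 KD, and 30.4 and 30.7 in Lint-O KD. Its Lint-1 KD libraries lay below all others, and Lint-O KD stood close to the control. It fell by 0.85 on the log2 scale in Lint-1 KD (SE 0.155, edgeR adjusted p = 0.00844), with 0.0512 without EGFP KD 1, 0.0568 without EGFP KD 2 and 0.0963 without Lint-1 KD 2.

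Idgf4 fell by 0.89 in Lint-1 KD (SE 0.215, edgeR adjusted p = 0.0325) and Idgf6, listed as CG5210, by 0.60 (SE 0.126, edgeR adjusted p = 0.0168). Neither call held once any 1 of the 4 libraries compared was left out. Over the 17 alternative settings the log2 fold change ranged from -0.896 to -0.862 for Idgf4 and from -0.636 to -0.578 for Idgf6. With the replicate number as a block Idgf4 stood at an adjusted p of 0.0573. Idgf3 did not pass (log2 fold change -0.20, SE 0.158). In L(3)mbt KD and in Lint-O KD none of the 4 passed edgeR's test, with 1 of them at an unadjusted p under 0.05 in each and 0 called by DESeq2. The difference between Lint-1 KD and L(3)mbt KD was called for none of the 5 tested family members, Idgf1 included, in edgeR, with 3 at an unadjusted p under 0.05 and 1 called by DESeq2. A fall of this family in Lint-1 KD alone was therefore not shown.

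**Figure D4:**
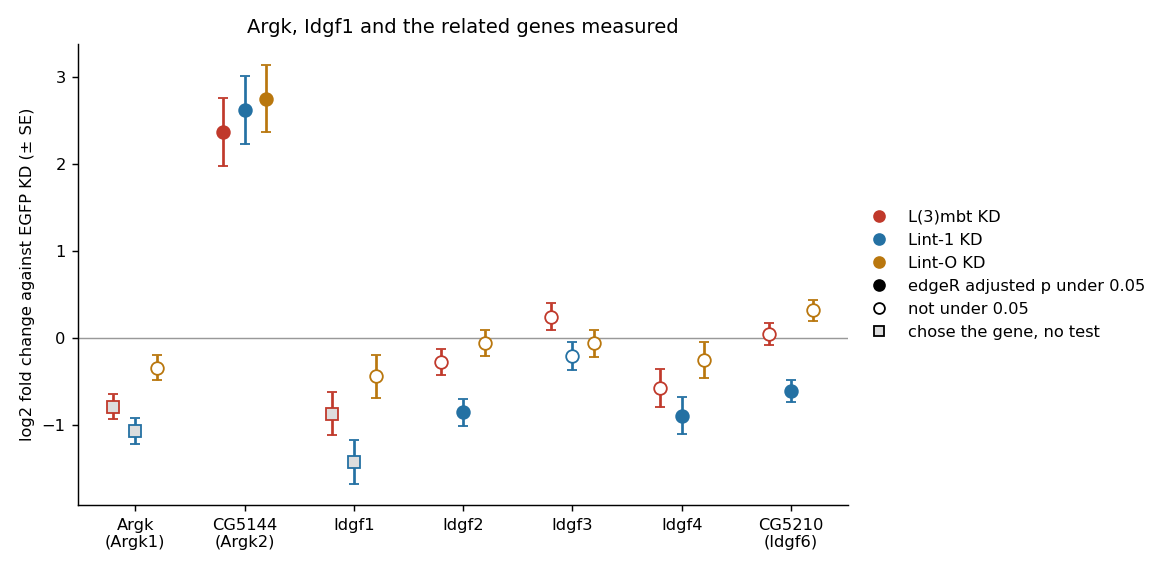
Log2 fold change against EGFP KD (± SE) of Argk, Idgf1 and the related genes measured, with filled circles for an edgeR adjusted p under 0.05, open circles for others, and grey squares for the values that chose the gene. Argk2 lies between 2.37 and 2.76 in the 3 knockdowns while Argk lies below 0, and Idgf2, Idgf4 and Idgf6 are called lower in Lint-1 KD.

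Of the other 16 tested Cyp6 genes, edgeR called Cyp6d4 and Cyp6a22 higher in each knockdown and no other. With Cyp6d5 included, DESeq2 called 3 of the family in L(3)mbt KD, 4 in Lint-1 KD and 2 in Lint-O KD. Of all tested genes edgeR called 9.58%, 8.41% and 5.2% higher in these comparisons, so a count of 2 is read as no feature of the family. Cyp6d4, which by name is the nearest relative of Cyp6d5, was read at 2.51 and 1.79 CPM in EGFP KD, 9.02 and 8.0 in L(3)mbt KD, 4.67 and 4.45 in Lint-1 KD, and 6.16 and 7.09 in Lint-O KD. All knockdown libraries were above the control libraries. On the log2 scale it rose by 1.91 ± 0.253 (SE) in L(3)mbt KD, 1.01 ± 0.257 in Lint-1 KD and 1.61 ± 0.254 in Lint-O KD, with edgeR adjusted p-values of 0.0012, 0.0394 and 0.00528. The call in L(3)mbt KD held in the 17 alternative settings. That in Lint-1 KD was lost without any 1 of the 8 libraries and that in Lint-O KD without EGFP KD 2. Over these settings the log2 fold change ranged from 0.77 to 1.30 in Lint-1 KD and from 1.37 to 1.91 in Lint-O KD. For Cyp6a22 each call was lost without EGFP KD 2 and without other libraries. Its log2 fold change over the settings ranged from 0.53 to 0.85 in L(3)mbt KD, 0.69 to 1.00 in Lint-1 KD and 0.59 to 0.92 in Lint-O KD.

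Among genes of chitin and the apical matrix, the setting in which the products of CG8213 and CG14608 are known, 5 others were tested. The chitin synthase gene kkv, the chitin deacetylase gene verm and obst-B, which encodes a chitin-binding protein, were called higher by edgeR in both L(3)mbt KD and Lint-1 KD, where 9.58% and 8.41% of all tested genes were. The other 2 were not called. The gene kkv was at 0.214 and 0.308 CPM in EGFP KD, 3.50 and 4.61 in L(3)mbt KD, 2.81 and 4.12 in Lint-1 KD, and 1.54 and 1.12 in Lint-O KD. Both control libraries were below all others. They lay near the level of 3 counts (0.143 to 0.164 CPM), so the rise of kkv is imprecise in size. It rose by 3.87 ± 0.482 (SE) in L(3)mbt KD and by 3.63 ± 0.485 in Lint-1 KD on the log2 scale, with edgeR adjusted p-values of 0.000844 and 0.00148, and these calls held in the 17 alternative settings. The calls of verm held in them too, whereas obst-B in L(3)mbt KD was lost without EGFP KD 2 (log2 fold change 2.13). In Lint-O KD kkv was called (edgeR adjusted p = 0.0327), but not without any 1 of the 4 libraries compared. Its log2 fold change there ranged from 2.02 to 2.59 over the 17 settings. Of the other 3 tested genes of glutathione synthesis and breakdown, Ggt-1 alone was called, higher in Lint-1 KD (by 2.13 ± 0.498 (SE) on the log2 scale, edgeR adjusted p = 0.0276). Leaving out any 1 of the 4 libraries compared ended that call, with a log2 fold change of 2.07 to 2.18 over the 17 settings.

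On the chromosomes the 6 genes were spread over 4 arms, with Argk on 3L, Cyp6d5, CG10365 and CG14608 on 3R, Idgf1 on 2L and CG8213 on 2R. Of their nearest and overlapping genes, 21 were tested. In Lint-O KD 1 of these was called higher, namely Argk2, and none lower. In L(3)mbt KD and in Lint-1 KD 1 was called lower and 1 higher, again with Argk2 the higher one. The lower ones were CG1234 (Noc3), near CG14608, in L(3)mbt KD and Idgf2 in Lint-1 KD. For CG1234 the call was lost without any 1 library except L(3)mbt KD 1. Its log2 fold change ranged from -0.85 to -0.45 over the 17 alternative settings. As a background, 1.31% and 1.25% of tested genes were called lower and 9.58% and 8.41% higher in these comparisons, and 5.2% higher in Lint-O KD.

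Some of the 6 genes overlap another gene, and the sources used here do not give the strand setting of the counting. Their reads may thus not be wholly separate. Cyp6d5 lies inside the span of rdx, whose mean was 20.9 CPM in EGFP KD and 32.2, 19.8 and 20.4 CPM in L(3)mbt KD, Lint-1 KD and Lint-O KD. Idgf1 lies inside the span of CG5888, at 16.4 CPM in EGFP KD and 22.0, 20.2 and 19.7 CPM in the knockdowns. The end of CG10365 overlaps Rpn9, at 543.4 CPM in EGFP KD and 550.5, 518.6 and 539.9 CPM in the knockdowns. None of these partner genes was called in edgeR in any knockdown against the control.

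The spans of Argk (17247 bp), CG14608 (16725 bp) and CG8213 (16555 bp) are long, near the 90th percentile of tested genes (17187 bp), whereas Cyp6d5 (2256 bp) and Idgf1 (1516 bp) are below the median of 2750 bp. Libraries differed in how levels moved with gene span. In the longest 10% of genes the mean trend was -0.22 in EGFP KD 1 and 0.20 in EGFP KD 2 on the log2 scale, between -0.09 and 0.38 in L(3)mbt KD and Lint-1 KD, and -0.26 and 0.08 in the Lint-O KD libraries. With this trend removed the rule found 8 genes, with 4 of the 6 among them. Argk and CG10365 no longer met it, while Cyp6d5, Idgf1, CG8213 and CG14608 did.

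The lists of pathways set beside these genes hold none of the 6. They do hold Act57B, CG9521, mthl9 and mthl10, which met the rule but were left out by name. Lower calls of these genes in L(3)mbt KD and Lint-1 KD rest on the values the rule used and are no test. In Lint-O KD they share the control libraries of the rule. As a background for the counts here and below, edgeR called 9.58%, 8.41% and 5.2% of all tested genes higher in L(3)mbt KD, Lint-1 KD and Lint-O KD. It called 1.31%, 1.25% and 0.255% lower. Among 17 tested genes of the basement membrane and extracellular matrix, 3 were called higher and 1 lower in L(3)mbt KD, 3 and 0 in Lint-1 KD, and 1 and 0 in Lint-O KD. The lower one, trol, kept its call in 9 of the 17 alternative settings. Among 20 tested genes of cell adhesion and junctions 1 was higher and 1 lower in L(3)mbt KD, and 1 higher in Lint-1 KD. For Lint-O KD edgeR called 0, with 2 at an unadjusted p under 0.05 and 0 called by DESeq2. The 14 tested actin and myosin genes had 1 higher and 1 lower in each of L(3)mbt KD and Lint-1 KD, the lower one being Act57B. For Lint-O KD edgeR called 0, with 1 at an unadjusted p under 0.05 and 0 by DESeq2.

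Of 19 tested genes of JAK/STAT and EGFR signalling edgeR called 0 in any knockdown. At an unadjusted p under 0.05 there were 3 in L(3)mbt KD, 2 in Lint-1 KD and 0 in Lint-O KD, and DESeq2 called 2, 1 and 0. Of 11 tested ecdysone response genes edgeR and DESeq2 called 0 in any knockdown, with 2 at an unadjusted p under 0.05 in Lint-1 KD and 0 in the others. The 7 tested GMC oxidoreductases, the family of CG9521, had 2 higher and 1 lower in each knockdown, the lower one being CG9521 itself. The 11 tested methuselah family receptors had 3 higher and 3 lower in L(3)mbt KD, 3 and 1 in Lint-1 KD, and 2 and 2 in Lint-O KD. All of the lower ones were genes left out by name, namely mthl9 in each knockdown, mthl10 in L(3)mbt KD and Lint-O KD, and mth in L(3)mbt KD.

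Median log2 fold changes of the signalling list were -0.10, -0.17 and -0.09 in L(3)mbt KD, Lint-1 KD and Lint-O KD, beside -0.01 over all tested genes in each. Those of the basement membrane list were 0.12, -0.07 and -0.11. Of 14 genes of the LINT, CoREST and dREAM repressors, the target of each RNAi was the gene edgeR called in its own knockdown, and it was lower. DESeq2 called 2 genes of this list in L(3)mbt KD and 1 in each of Lint-1 KD and Lint-O KD.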

How the data were processed

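RNA of 8 libraries was analysed. ChIP and input samples (6) were not used here. The authors deposited unnormalised counts of reads for each gene. Per the submitters' processing notes HISAT2, HTSeq, edgeR and the build dm6 were used, with roles and versions not given in the sources used here. Left out were reads assigned to no gene, 14.96% to 18.5% per library, and those assigned ambiguously, 1.05% to 1.13%. Spans and positions are from the RefSeq gene table of Release 6, the assembly of dm6, where 12512 symbols were current, 3996 were matched by a synonym and 219 were not matched. CPM was each count over the sum of gene counts in its library. The floor for a gene without reads was 3 counts, or 0.143 to 0.164 CPM.

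Counts were tested with edgeR 4.0.16 (R 4.3.3): filterByExpr, TMM factors (0.948 to 1.056) and a quasi-likelihood fit by group of all 8 libraries (4 residual degrees of freedom) over 8244 genes, all 6 members among them. Calls needed an adjusted p (Benjamini-Hochberg, over all tested genes) under 0.05. The biological coefficient of variation came to 15.4%. Intervals use the residual and the median prior degrees of freedom (5.02). DESeq2 1.42.0 was an alternative, as were other scalings and filters, blocking on the replicate number, subtracting a lowess trend on gene span (smoother span 0.3) and each library left out. The fit was tested on simulated data. Each library counted as 1 sample, since those of a group differed by more than counting noise (chi-square of 22.0 to 52.9 for each degree of freedom).

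The 6 genes, the gene lists and the families were chosen with earlier results of these data known. Every member is named with its value in each library, and pathway lists are given as counts. Promoters, proteins and their sequences were not used here.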

Additional observations from a re-analysis of the deposited data

How the results depend on the processing

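The rule found 6 genes, 2 with a ratio of 0.6, 37 with 0.8, 12 with TMM-normalised CPM (the 6 among them) and 12 with DESeq2 size factors (5 of the 6, without Argk). Leaving out each of the 6 libraries in turn gave 7 to 56 genes, the highest without EGFP KD 1. The count of members called lower in Lint-O KD was 0. It became 1 with the DESeq2 test, 2 without the low-count filter and 2 in the fit of 4 libraries, and ranged from 0 to 2 with each library left out, where it was 2 without either Lint-1 KD library. The count called between Lint-1 KD and L(3)mbt KD was 0. It became 1 with the DESeq2 test and 1 without the low-count filter, and stayed at 0 with each library left out. The median log2 ratio of the 6 genes in Lint-O KD, -0.50, was -0.64 to -0.33 with each library left out. Wider gene sets read against the control library not used in their choice had other medians. It was -0.0026 for the 56 genes chosen with EGFP KD 2 alone and -0.40 for the 10 chosen with EGFP KD 1 alone. CG14608 between Lint-1 KD and L(3)mbt KD ranged from -0.23 to 1.31 with each library left out, the lowest, a reversal, without Lint-1 KD 1. Of 1768 recomputed counts of called genes per list, 1559 were within 1.5 times the reported count. Except where a value above says so, the cause was not tested.

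With the replicate number as a block, 0 members were called in either comparison and the median log2 ratio was -0.50. Deviations of same-numbered libraries correlated at 0.22 between EGFP KD and Lint-O KD and at 0.36 between L(3)mbt KD and Lint-1 KD, and at -0.38 to -0.18 in the other pairs of groups, so same-numbered libraries did not deviate together across all groups, and the number was not taken as a pairing. A crossed replicate block, chosen after seeing the data, called 3 members lower in Lint-O KD and 1 between Lint-1 KD and L(3)mbt KD. Groups of 2 libraries, low counts for CG8213 and Idgf1, and low control levels of kkv and Argk2 limit the precision.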
